A study of Homo sapiens with 6 samples.

Results

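The α- and β-tubulin genes of MRC5 lung fibroblasts were examined in cells exposed to conditioned media (CM) from lung epithelial cells. Members were the 10 genes *TUBA1A*, *TUBA1B*, *TUBA1C*, *TUBA4A*, *TUBB*, *TUBB2A*, *TUBB2B*, *TUBB3*, *TUBB4B* and *TUBB6*, taken by GENCODE symbol from a table of 58676 gene identifiers. Of these, 9 had at least 10 counts summed over the libraries and were tested among 19072 genes, and *TUBB*, with 6 counts, was not.

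Microtubules are hollow polymers of heterodimers, each made of an α-tubulin and a β-tubulin. Humans have several genes for each subunit, called isotypes, whose products are nearly identical along their folded body and many of which differ in the acidic C-terminal tail, which faces outwards and binds motors, associated proteins and modifying enzymes. Cells also adjust tubulin mRNA to the amount of free heterodimer: the factor TTC5 recognises the first residues of a nascent tubulin chain on the ribosome and directs decay of the mRNA that encodes it. Fibroblasts use microtubules for polarity, transport and, when they divide, for the mitotic spindle.

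RNA-Seq of polyA RNA was performed on 6 libraries of MRC5, a human fetal lung fibroblast line. In 3 libraries the cells had received CM from untreated ATII cells for 24 h (control ATII CM), and in 3 the CM came from the same epithelial line treated with 4-hydroxytamoxifen (4-OHT ATII CM). The ATII cells are an alveolar type II line engineered so that 4-OHT switches on RAS signaling. The comparison asks how fibroblasts respond to factors released by RAS-activated epithelial cells. No group here had 4-OHT without RAS activation, so effects of any 4-OHT left in the CM and of epithelial factors cannot be told apart. Nothing in the labels says that the libraries came from separate cultures, so p values measure only the spread between these libraries.

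Library totals ranged from 17691849 to 26389449 counts. Fibroblast markers led by *COL1A1* and *COL1A2* were detected in 10 of 10 cases, and their summed level was 41095 to 44612 CPM (counts scaled to library size) with control ATII CM and 42969 to 44711 CPM with 4-OHT ATII CM. Of these 10, edgeR called 4 up (*COL3A1*, *DCN*, *LUM* and *PDGFRA*) and 1 down (*VIM*), which are named after their values were seen. Epithelial markers summed to 91.3 to 97.2 CPM and 88.9 to 95.1 CPM, nearly all *KRT8* and *KRT18*, with 2 of 10 at 0 counts. Neuronal markers summed to 10.5 to 15.0 CPM and 12.5 to 13.2 CPM, mostly *SYT1* and *SNAP25*, with 4 of 10 at 0 counts. Control replicate 2 stood apart from the other control libraries, where chi-square values divided by their degrees of freedom were 4.87 and 5.56 against them and 2.04 between those, and values without it are given beside many of the results.

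The isotypes are shown first by the ends of their coding sequences, because these hold the stretch read by the autoregulation factor and the C-terminal tail. Sequences are from GRCh38 with GENCODE release 44, in the direction of transcription. The first 30 coding bases are given with the first 12, which encode the residues TTC5 recognises, in capitals. *TUBA1A*, *TUBA1B* and *TUBA1C* had the same 30 bases, and the 10 members had 6 different versions of the first 12.
TUBA1A, TUBA1B and TUBA1C: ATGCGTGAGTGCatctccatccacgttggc
TUBA4A: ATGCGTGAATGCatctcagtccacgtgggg
TUBB4B: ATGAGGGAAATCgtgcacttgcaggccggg
TUBB6: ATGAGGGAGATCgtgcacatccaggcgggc
TUBB2A: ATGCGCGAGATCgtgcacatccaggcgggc
TUBB2B: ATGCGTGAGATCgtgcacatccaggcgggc

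The last 63 coding bases, which cover the C-terminal tail, are given for 4 β-tubulins with the stop codon in capitals. They lie at chr9:137243494-137243556 on the plus strand for *TUBB4B*, at chr18:12326068-12326130 on the plus strand for *TUBB6*, at chr6:3153863-3153925 on the minus strand for *TUBB2A* and at chr6:3224751-3224813 on the minus strand for *TUBB2B*.
TUBB4B: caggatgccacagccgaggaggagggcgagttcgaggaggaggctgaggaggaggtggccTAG
TUBB6: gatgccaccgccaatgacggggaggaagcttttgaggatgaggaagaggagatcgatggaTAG
TUBB2A: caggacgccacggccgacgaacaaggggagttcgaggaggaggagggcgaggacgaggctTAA
TUBB2B: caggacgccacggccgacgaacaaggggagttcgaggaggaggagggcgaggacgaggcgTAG

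Over the last 60 bases before the stop codon, *TUBB2A* and *TUBB2B* were 98.3% identical. Over the whole coding sequence, pairs of α-tubulins were 84.4 to 97.2% identical and pairs of β-tubulins 80.8 to 98.1%, against 54.8 to 57.5% between an α- and a β-tubulin. Reads from such stretches can be assigned to the wrong member, so the share of each transcript with an exact copy elsewhere was measured with windows of 100 bases along its main GENCODE transcript. On the primary chromosomes, 55.6% of the windows of *TUBB2A*, 48.7% of *TUBB2B*, 37.2% of *TUBA1B*, 21.2% of *TUBA1A* and 12.3% of *TUBA1C* occurred at another place. For *TUBB*, *TUBB3* and *TUBB4B* the share was 5.4%, 5.4% and 3.0%, and for *TUBA4A* and *TUBB6* no window did. The authors sequenced paired-end reads longer than these windows, so the percentages describe windows and not the share of reads that could not be placed.

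**Figure D1:**
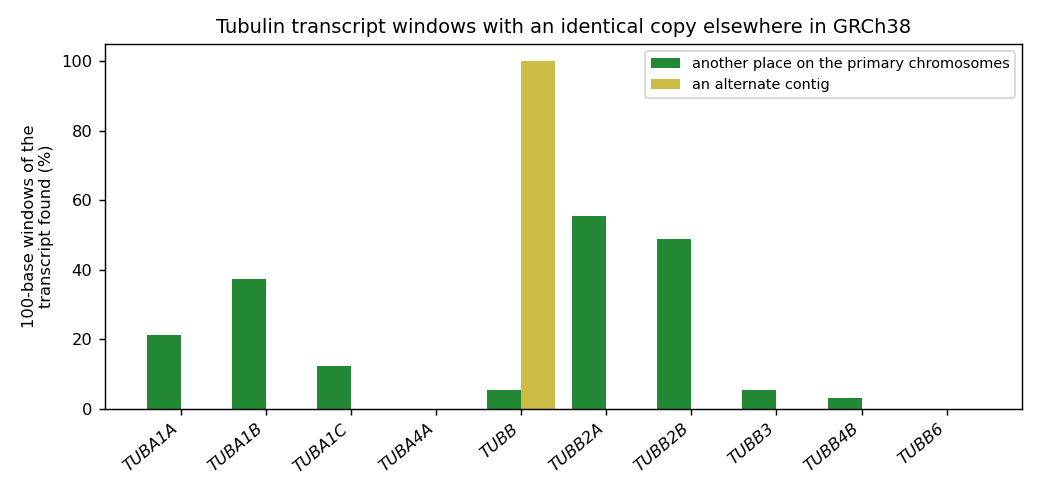
Bars give, for each of the 10 tubulin genes, the percentage of 100-base windows of its main transcript that occur exactly at another place on the primary chromosomes of GRCh38 (green) or on an alternate contig (yellow). *TUBB2A* has the highest primary share at 55.6%, and *TUBB* alone has copies on alternate contigs, for 100% of its windows.

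Near-identical copies, taken as transcripts that covered at least 50% of a member's transcript at 95% identity or more, linked *TUBA1A*, *TUBA1B* and *TUBA1C* to each other at 97.1 to 98.1% identity and *TUBB2A* to *TUBB2B* at 98.3%. How reads with several best positions were counted is not given in the sources used here, so counts within these 2 groups are uncertain as to which member they belong to, and sums over each group are given beside the members. *TUBB* had a near-identical pseudogene, *TUBBP1* (97.1%), which itself held 2158 counts over the 6 libraries, at 17.5 ± 2.08 CPM with control ATII CM and 14.9 ± 0.875 CPM with 4-OHT ATII CM (SD, n = 3; log2 fold change −0.23 ± 0.0863 SE, edgeR adjusted p = 0.148). *TUBB2BP1*, a pseudogene near-identical to *TUBB2A* (97.8%), held 19 counts in all. *TUBB3* shares 35.8% of its exon bases with the readthrough gene ENSG00000198211 on the same strand, whose transcript covers 93.0% of the main *TUBB3* transcript at 100% identity and which held 0 counts. How the counting treated reads that overlap both is not given, and the part of this overlap in the level of *TUBB3* was not tested.

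Overlaps with genes on the opposite strand also touch several members, and because the strand setting of the counting is not given, reads of the 2 partners cannot be told apart there. *TUBA1A* and *TUBA1C* share 490 exon bases. *TUBB6* shares 20.3% of its exon bases with *AFG3L2*, which held 5247 counts in all, and *TUBA4A* 15.4% with *STK16*, which held 3055, against 140 to 179 counts a library for *TUBA4A* itself, while the antisense gene *TUBA1B-AS1*, which covers 36.6% of the exon bases of *TUBA1B*, held 3 counts in all.

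*TUBB*, the gene of the β-tubulin that most proliferating cells use, was the member with almost no counts. It is ENSG00000196230 on the plus strand of chromosome 6, at 30720201 to 30725426, and the libraries held 1, 1 and 1 counts with control ATII CM and 2, 0 and 1 with 4-OHT ATII CM. Both groups are at or under a floor of 3 counts a library, so no fold change is given. All of its windows (100%) occurred on alternate contigs, and 7 contigs each held at least 50% of them, whereas none of the other members had a single window there.

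Genes around *TUBB* were low as well. Of the 73 protein-coding genes within 1 Mb, 53 (72.6%) had fewer than 10 counts in all and their median was 0, against 331 of 959 (34.5%) and a median of 340 on the rest of chromosome 6. Neighbours within 50 kb were *PPP1R18* with 1 count in all, *NRM* with 0, *FLOT1* with 4, *IER3* with 14, *DHX16* with 38 and *MDC1* with 56. Whether the authors' genome index held alternate contigs is not given in the sources used here, and the part of these copies in the low counts was not tested. The count of *TUBB* is therefore reported as a count and not as a level of expression, and the β-tubulin sums below are sums of what was counted.

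Levels of different genes were compared as RPKM, which here are TMM-normalized CPM divided by the deposited exon length in kilobases. *TUBA1A* had the highest level, at 213 ± 8.81 RPKM with control ATII CM (SD, n = 3) and 205 ± 8.06 RPKM with 4-OHT ATII CM. *TUBB4B* followed at 127 ± 7.12 and 112 ± 4.34 RPKM, and then *TUBB6* at 91.5 ± 5.60 and 84.0 ± 1.91 RPKM and *TUBA1B* at 90.8 ± 5.55 and 76.1 ± 3.86 RPKM. Next came *TUBA1C* at 42.4 ± 1.72 and 35.6 ± 0.727 RPKM and *TUBB2A* at 41.9 ± 3.34 and 38.5 ± 1.41 RPKM. Leaving aside *TUBB*, which has no usable level, the 6 most abundant members were 3 isotypes of each subunit.

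The other members were far lower. *TUBB2B* stood at 11.2 ± 1.29 and 11.5 ± 1.04 RPKM, *TUBA4A* at 1.75 ± 0.186 and 1.64 ± 0.0659 RPKM, and *TUBB3*, the isotype typical of neurons, at 0.350 ± 0.0939 and 0.450 ± 0.0363 RPKM. In control ATII CM, *TUBB6* and *TUBA1B* overlapped between libraries, as did *TUBA1C* and *TUBB2A*, and no other neighbours in the order did. In 4-OHT ATII CM no neighbours overlapped and *TUBB2A* stood above *TUBA1C*. The order depends on the length used: with the length of the main transcript in place of all merged exons, *TUBB4B* moved from rank 2 to rank 4, below *TUBB6* and *TUBA1B*, and *TUBA1C* stood above *TUBB2A* in both groups (58.4 and 41.2 RPKM with 4-OHT ATII CM).

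**Figure D2:**
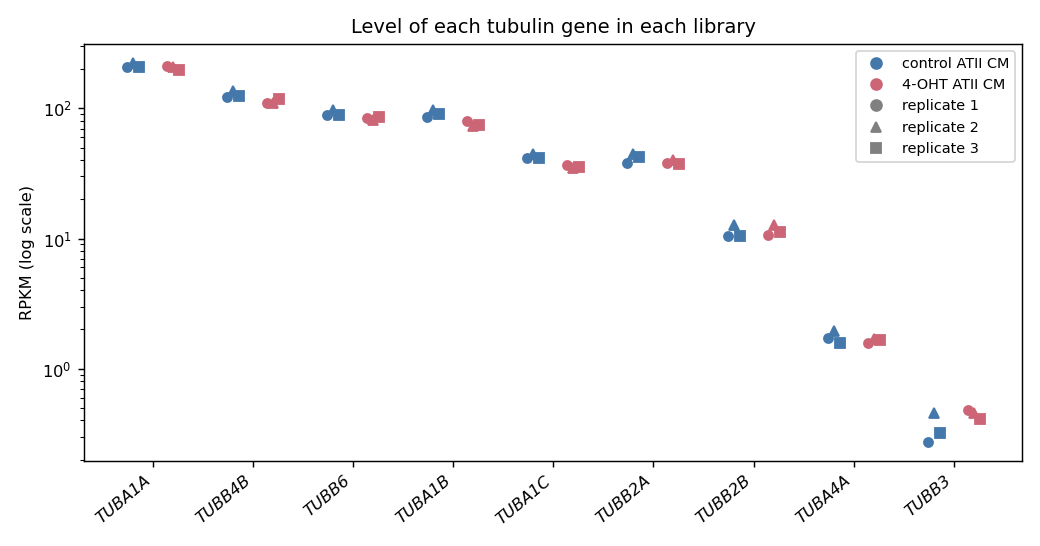
Points give the RPKM of the 9 tubulin genes tested (log scale) in each of the 3 control ATII CM libraries (blue) and the 3 4-OHT ATII CM libraries (red), with symbols for the replicate number. *TUBA1A* lies highest, with means of 213 and 205 RPKM, and *TUBB3* lowest of those plotted, at 0.350 and 0.450 RPKM.

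Of the 9 members tested, 3 were downregulated with 4-OHT ATII CM and 0 were upregulated by edgeR's quasi-likelihood test at an adjusted p below 0.05. Over all 19072 genes tested, 5.72% were called, with 2.76% downregulated and 2.95% upregulated, and among the 1947 genes with a mean of at least 100 CPM, where 5 members lie, 7.6% were downregulated. DESeq2 and limma-voom each also called 3 members down and 0 up, where DESeq2 called 3.9% of its genes down, and at an unadjusted p below 0.05 edgeR gave 5 lower and 0 higher, beside 8.61% lower and 8.72% higher over all genes. The members called were *TUBA1B*, *TUBA1C* and *TUBB4B*. Mean levels were lower for 7 members and higher for 2, with a median log2 fold change of −0.12, beside −0.002 over all genes. Control replicate 2 was the highest library for 8 of the 9, and without it 7 members were still lower and 2 higher but the median was −0.07. The 2 groups of libraries did not overlap for 4 members (*TUBA1B*, *TUBA1C*, *TUBB4B* and *TUBB6*), as they did not for 22.1% of all genes.

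**Figure D3:**
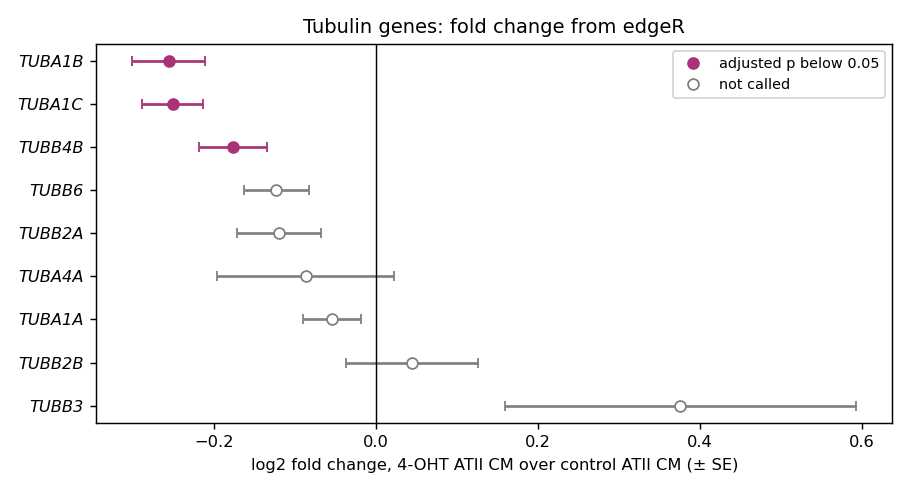
Points give the log2 fold change of 4-OHT ATII CM over control ATII CM for the 9 tubulin genes tested, and bars the standard error from edgeR. Filled points mark the 3 genes with an adjusted p below 0.05, *TUBA1B* (−0.26), *TUBA1C* (−0.25) and *TUBB4B* (−0.18).

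*TUBA1B* (ENSG00000123416, chromosome 12, 49127782 to 49131397, minus strand) encodes the α-tubulin regarded as the general one of most tissues. Its level was 306, 346 and 322 CPM with control ATII CM and 288, 262 and 266 CPM with 4-OHT ATII CM. Every 4-OHT library lay below every control library. The mean fell from 325 ± 19.8 to 272 ± 13.8 CPM (SD, n = 3), a log2 fold change of −0.26 ± 0.0453 (SE; edgeR adjusted p = 0.00289), or 0.837-fold. The change passed the threshold in all 16 alternative analyses, which reuse the same libraries. Their adjusted p ranged from 2.39e-09 (edgeR with no filter on low counts) to 0.0328 (edgeR without 4-OHT replicate 2). It was −0.21 on the log2 scale without control replicate 2.

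*TUBA1C* (ENSG00000167553, chromosome 12, 49188736 to 49274603, plus strand) encodes another widely expressed α-tubulin. It measured 192, 205 and 191 CPM with control ATII CM and 169, 162 and 164 CPM with 4-OHT ATII CM. The groups were again separate, with little spread within the 4-OHT libraries. The mean fell from 196 ± 7.99 to 165 ± 3.37 CPM, a log2 fold change of −0.25 ± 0.0377 (SE; edgeR adjusted p = 0.000744), or 0.840-fold. It also passed in 16 of 16 alternatives (adjusted p 5.51e-08, from edgeR with no filter on low counts, to 0.0117) and was −0.22 without control replicate 2.

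*TUBA1A* (ENSG00000167552, chromosome 12, 49184796 to 49189324, minus strand) is the α-tubulin gene best known from the developing brain, and in MRC5 it had the highest level of the members tested. Its libraries held 713, 765 and 712 CPM with control ATII CM and 726, 710 and 672 CPM with 4-OHT ATII CM. These groups overlapped, and the log2 fold change of −0.05 ± 0.0362 (SE) did not pass the threshold (edgeR adjusted p = 0.498) in the main analysis or in any of the 16 alternatives. *TUBA4A* (ENSG00000127824, chromosome 2), whose product lacks the C-terminal tyrosine that the other α-tubulins are made with, had 7.07, 7.95 and 6.44 CPM against 6.39, 6.90 and 6.81 CPM, also overlapping (log2 fold change −0.09 ± 0.109, adjusted p = 0.762). Without control replicate 2 the log2 fold changes were −0.02 for *TUBA1A* and −0.01 for *TUBA4A*.

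Since reads can be exchanged among the near-identical α-tubulins, their ratios within each library were also taken. For every count of *TUBA1A* there were 0.429, 0.452 and 0.452 counts of *TUBA1B* with control ATII CM and 0.396, 0.369 and 0.396 with 4-OHT ATII CM. For *TUBA1C* the ratio was 0.270, 0.269 and 0.268 against 0.232, 0.228 and 0.244. Neither ratio overlapped between groups, whereas the ratio of *TUBA1C* to *TUBA1B* did, with means of 0.605 and 0.607. An exact two-sided permutation test of 3 libraries against 3 cannot give a p below 0.1, so ratios and shares are given as values only. Summed, *TUBA1B* and *TUBA1C* changed from 521 ± 27.2 to 437 ± 17.1 CPM (log2 ratio −0.25), and the sum of *TUBA1A*, *TUBA1B* and *TUBA1C*, which no exchange between them can alter, went from 1251 ± 56.7 to 1140 ± 40.2 CPM (−0.13) without overlap between libraries. Without control replicate 2 these log2 ratios were −0.21 and −0.10.

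Among the β-tubulins, *TUBB4B* (ENSG00000188229, chromosome 9, 137241213 to 137243707, plus strand), a widely expressed isotype, was the one called. It measured 257, 285 and 262 CPM with control ATII CM and 233, 231 and 248 CPM with 4-OHT ATII CM. All 4-OHT libraries lay below all control libraries, though 4-OHT replicate 3 came within 10 CPM of control replicate 1. The mean fell from 268 ± 15.0 to 237 ± 9.16 CPM, a log2 fold change of −0.18 ± 0.0422 (SE; edgeR adjusted p = 0.0205), or 0.885-fold. The call was lost without 4-OHT replicate 1 (adjusted p = 0.107) and without 4-OHT replicate 2 (0.112). Without control replicate 2 it remained, at −0.13 (0.0198).

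*TUBB6* (ENSG00000176014, chromosome 18, 12307669 to 12344320, plus strand), a divergent β-tubulin outside the nervous system, had 363, 403 and 363 CPM with control ATII CM and 349, 337 and 352 CPM with 4-OHT ATII CM. The groups did not overlap, but the log2 fold change of −0.12 ± 0.0403 (SE) missed the threshold (edgeR adjusted p = 0.0973). It passed only when no filter on low counts was used (0.0296), and it was −0.07 without control replicate 2.

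*TUBB2A* (ENSG00000137267) and *TUBB2B* (ENSG00000137285) are neighbouring genes on chromosome 6 that are both prominent in neurons. *TUBB2A* had 66.2, 77.7 and 73.3 CPM with control ATII CM and 66.1, 69.2 and 64.4 CPM with 4-OHT ATII CM (log2 fold change −0.12 ± 0.0519, edgeR adjusted p = 0.238), and it passed only without control replicate 1 (0.0415) and was −0.07 without control replicate 2. *TUBB2B* had 22.8, 27.8 and 23.0 CPM against 23.3, 27.8 and 24.5 CPM (0.04 ± 0.0814, adjusted p = 0.851), and its sign depended on the libraries used (0.14 without control replicate 2). Both pairs of groups overlapped. Their sum was 97.0 ± 8.23 and 91.7 ± 4.51 CPM, and without control replicate 2 the control mean was 92.7 CPM.

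*TUBB3* (ENSG00000258947, chromosome 16) was measured at low depth, with 26, 36 and 32 counts with control ATII CM and 47, 50 and 48 counts with 4-OHT ATII CM. Scaled to library size these were 1.22, 2.02 and 1.41 CPM and 2.15, 2.00 and 1.83 CPM, so that control replicate 2 lay within the 4-OHT range. The log2 fold change of 0.38 ± 0.217 (SE) was the highest of the 9 and did not pass the threshold (edgeR adjusted p = 0.417), nor did the value of 0.59 without control replicate 2. *TUBB3* was also the only one of the 9 whose highest library was not control replicate 2.

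As a pool, the 4 α-tubulins summed to 348 ± 15.9 RPKM with control ATII CM and 319 ± 11.4 RPKM with 4-OHT ATII CM (log2 ratio −0.13), and the 6 β-tubulins as counted to 272 ± 17.0 and 247 ± 4.16 RPKM (−0.14). Neither sum overlapped between groups. Without control replicate 2 both log2 ratios were −0.09. The ratio of the α to the β sum was 1.28 ± 0.0218 and 1.29 ± 0.0649, with overlapping libraries.

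Within the α pool, the share of *TUBA1A* was 61.8, 61.0 and 61.0% with control ATII CM and 64.2, 65.4 and 63.8% with 4-OHT ATII CM. The shares of *TUBA1B* (26.1 and 23.9% on average) and *TUBA1C* (12.2 and 11.2%) were lower in every 4-OHT library than in any control library. Within the β pool, *TUBB4B* made up 46.7 and 45.5%, *TUBB6* 33.6 and 34.0% and *TUBB2A* 15.4 and 15.6%, each with overlap between groups. *TUBB3* (0.127 and 0.182%) had a higher share in every 4-OHT library, on low counts. The closest were control replicate 2 at 0.156% and 4-OHT replicate 3 at 0.164%, and in CPM the groups of *TUBB3* overlapped. For *TUBB2B* (4.11 and 4.65%), control replicate 2 and 4-OHT replicate 1 were both at 4.35%. Per count of *TUBB2A* there were 0.339 ± 0.0226 and 0.378 ± 0.0241 counts of *TUBB2B*, with overlapping libraries. With the length of the main transcript the leading isotype changed, to *TUBB6* at 46.5 and 47.0%, with *TUBB4B* at 39.9 and 38.8% and *TUBB2A* at 10.4 and 10.5%. In CPM, which needs no gene length, *TUBB4B* per *TUBB6* was 0.713 ± 0.00829 with control ATII CM and 0.686 ± 0.0191 with 4-OHT ATII CM. The groups did not overlap but nearly touched, at 0.708 in control replicate 2 and 0.705 in 4-OHT replicate 3.

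**Figure D4:**
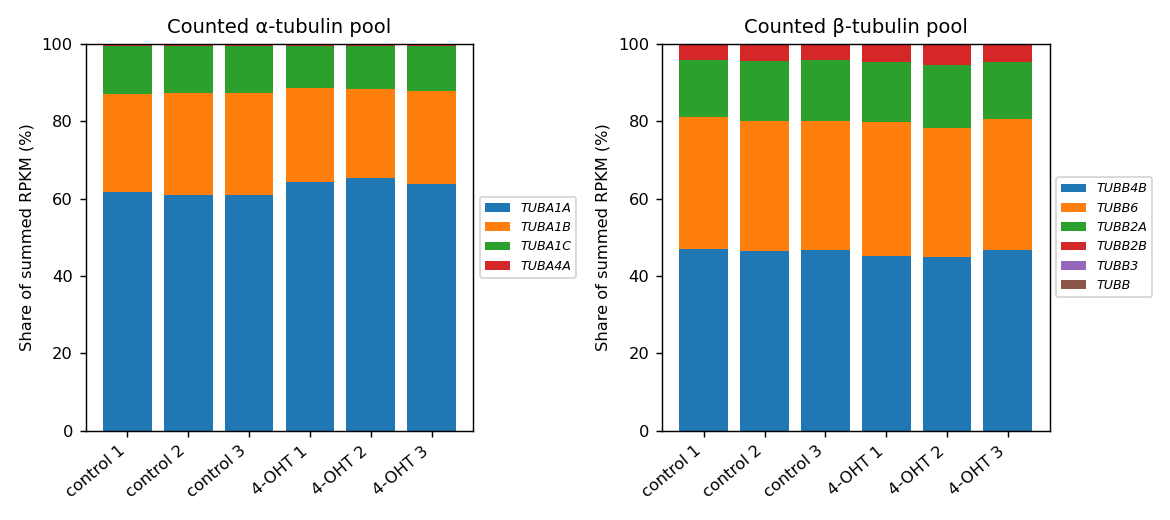
Stacked bars give the share of each isotype in the summed RPKM of the α-tubulin genes (left) and the β-tubulin genes as counted (right), for each of the 6 libraries. *TUBA1A* takes 61.0 to 61.8% of the α pool with control ATII CM and 63.8 to 65.4% with 4-OHT ATII CM. *TUBB4B* takes 46.7 and 45.5% of the β pool on average, with overlap between groups.

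Microtubules of the spindle are built when cells divide, and genes of dividing cells differed strongly between the same libraries. Of 15 proliferation markers, 14 were downregulated and 0 upregulated by edgeR (DESeq2 and limma-voom gave the same counts, and at an unadjusted p below 0.05 there were 15 lower and 0 higher), with a median log2 fold change of −0.52. *MKI67*, a marker of cycling cells, fell from 41.5 ± 4.60 to 24.2 ± 0.896 CPM (log2 fold change −0.78 ± 0.0699, edgeR adjusted p = 1.01e-05), and *TOP2A*, the topoisomerase of dividing cells, from 98.5 ± 4.12 to 66.7 ± 4.58 CPM (−0.56 ± 0.0495, adjusted p = 8.82e-06). The marker not called, named after its values were seen, was *PCNA*, the sliding clamp of DNA replication, at 68.9 ± 2.08 and 63.9 ± 4.28 CPM (−0.11, adjusted p = 0.242). The markers summed to 488 to 514 CPM with control ATII CM and 342 to 373 CPM with 4-OHT ATII CM, and their part in the lower tubulin levels was not tested. In bulk libraries such as these, fewer cells of a kind and less RNA in each cell cannot be told apart. Of 14 reference genes, 0 were called by edgeR in either direction, with a median of 0.01 (3 had an unadjusted p below 0.05, 1 higher and 2 lower, and DESeq2 and limma-voom each called 1 higher). Among them *ACTB*, another cytoskeletal gene, had 7674 ± 296 and 7847 ± 228 CPM (adjusted p = 0.630) and *GAPDH* 2190 ± 93.3 and 2125 ± 46.4 CPM (0.532).

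Promoters of many genes of the late cell cycle hold a CCAAT box together with a cell cycle homology region, TTTGAA, and the RefSeq promoters of the members (GRCh38.p14, 250 bases before and 50 after each start, 15 entries for all 10 members) were searched for both, on either strand. *TUBA1C* held both motifs in each of its 3 entries, a pair of which overlap, and *TUBB4B* in its 1 entry, which makes 4 of the 15 entries, against 5.90% of 35116 RefSeq entries. *TUBA1B*, the third member called, held neither, but 3 copies of GGGCGG, the GC box, which 45.0% of entries held at least once. With or without the other motif, CCAAT was found in 9 of the 15 entries, from 7 members, against 34.6% of all entries, and TTTGAA in 4 of 15, of which 3 are from *TUBA1C*, against 15.2%. By gene, both motifs were found in 2 of the 10 members. The *TUBA1C* entries that start at 49227676 and 49227769 lie far upstream of its first coding base at 49265182. A match describes the letters and not a bound site, and the part of these motifs in the levels was not tested. The 250 bases before the start are shown for the 2 members with both motifs, CCAAT and TTTGAA in capitals, for *TUBA1C* at chr12:49264832-49265081 and for *TUBB4B* at chr9:137241037-137241286, both on the plus strand.
TUBA1C: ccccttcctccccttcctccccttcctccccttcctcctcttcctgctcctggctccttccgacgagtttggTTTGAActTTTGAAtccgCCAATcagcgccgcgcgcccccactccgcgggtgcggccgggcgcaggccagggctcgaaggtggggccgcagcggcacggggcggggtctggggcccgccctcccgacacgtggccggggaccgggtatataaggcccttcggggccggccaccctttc
TUBB4B: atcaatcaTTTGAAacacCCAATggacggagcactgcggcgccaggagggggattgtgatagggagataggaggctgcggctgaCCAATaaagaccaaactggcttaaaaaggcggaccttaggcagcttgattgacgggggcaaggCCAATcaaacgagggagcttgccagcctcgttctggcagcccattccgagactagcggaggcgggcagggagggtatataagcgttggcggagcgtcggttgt

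Related genes were taken from lists of the tubulin pathway. Counts at an unadjusted p below 0.05, marked as unadjusted, stand against the 8.61% of all genes that were lower and the 8.72% that were higher at that level. Of 13 tested genes of the CCT chaperonin and of prefoldin, which fold tubulin together, 11 were lower, with a median log2 fold change of −0.05. Over this joint list, 1 was downregulated and 0 upregulated (DESeq2 2 and 0, limma-voom 1 and 0, unadjusted 3 and 0). The gene was *CCT5*, a chaperonin subunit, at 210 ± 8.48 and 190 ± 4.16 CPM (−0.14 ± 0.0374, edgeR adjusted p = 0.0393), called without control replicate 2 or 3 but not without any of the other 4 libraries. Of 10 tubulin folding cofactors and autoregulation factors, 0 were called in either direction by edgeR, DESeq2 or limma-voom, 2 were higher and 0 lower at an unadjusted p below 0.05, and the median was 0.04. *TTC5*, which acts on the N-terminal stretch shown above, had 20.7 ± 1.09 and 22.0 ± 0.614 CPM (0.09 ± 0.0635, adjusted p = 0.501).

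**Figure D5:**
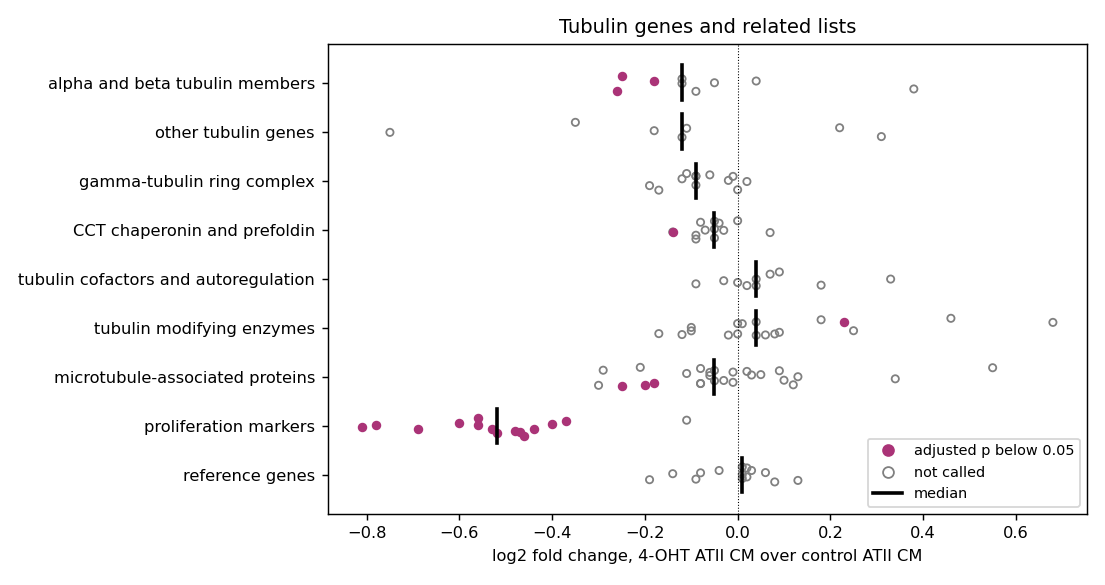
Each point is the log2 fold change of a gene tested, 4-OHT ATII CM over control ATII CM, for the tubulin genes and 8 related lists, spread vertically for legibility. Filled points have an adjusted p below 0.05 and bars mark medians, which are −0.12 for the tubulin members, −0.52 for proliferation markers and 0.01 for reference genes.

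Microtubule-associated proteins stabilise, sever or depolymerise microtubules, and 3 of 26 tested were downregulated and 0 upregulated (DESeq2 2 and 0, limma-voom 3 and 0, unadjusted 7 and 3), with a median of −0.05. *STMN1*, stathmin, which binds free tubulin and favours depolymerisation, fell from 193 ± 8.67 to 168 ± 6.42 CPM (log2 fold change −0.20 ± 0.0410, edgeR adjusted p = 0.00703) and was called except without 4-OHT replicate 2. *CKAP5*, a microtubule polymerase, fell from 116 ± 8.26 to 102 ± 0.794 CPM (−0.18 ± 0.0462, adjusted p = 0.0289), and *MAP1A* from 267 ± 31.6 to 225 ± 1.77 CPM (−0.25 ± 0.0601, adjusted p = 0.0222). Of the 6 analyses that left out a library, both were called only without control replicate 2 (−0.24 and −0.34), and DESeq2 did not call *MAP1A* (adjusted p = 0.0908). *MAP4*, the main such protein outside neurons, had 678 ± 12.2 and 649 ± 5.21 CPM (−0.06 ± 0.0285, adjusted p = 0.266).

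Of 18 tested enzymes that modify tubulin, 1 was upregulated and 0 downregulated (DESeq2 0 and 0, limma-voom 1 and 0, unadjusted 2 and 1), with a median of 0.04. It was *VASH1*, a peptidase that removes the C-terminal tyrosine of α-tubulin, at 26.8 ± 0.185 and 31.4 ± 2.41 CPM (log2 fold change 0.23 ± 0.0603, edgeR adjusted p = 0.0323, DESeq2 0.0504), called without control replicate 2 or 4-OHT replicate 1 and not without any of the other 4 libraries. The γ-tubulin ring complex, which nucleates microtubules, had 0 of 12 genes called by edgeR, DESeq2 or limma-voom (unadjusted 3 lower and 0 higher), with 11 lower and a median of −0.09. Of the 12 further tubulin genes 7 could be tested, 0 of which were called by any of the 3 tools (unadjusted 2 lower and 0 higher), with a median of −0.12. This list and the γ-tubulin ring complex share 2 genes, *TUBG1* and *TUBG2*, which are counted in both.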

How the data were processed

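The submitters' processing notes name Trim Galore, HISAT2 2.1.0 (on GRCh38) and featureCounts 1.6.5, and the values the authors deposited are raw counts with the exon length of each gene. Strand setting and treatment of multiply mapped reads are not given in the sources used here. Groups came from the sample labels. Counts of the 45 identifiers with lines on both X and Y were added. Genes with at least 10 counts over the 6 libraries were tested by edgeR 4.0.16 (R 4.3.3; TMM, quasi-likelihood test, group as the only term, Benjamini-Hochberg over 19072 genes, threshold 0.05), with DESeq2 1.42.0 and limma-voom (limma 3.58.1) as alternatives. Root common dispersion was 4.36%. CPM and RPKM use TMM-normalized library sizes, and errors are SD over 3 libraries or SE from edgeR. GENCODE release 44 named 16843 genes tested (88.3%). Near-identical transcripts were found with minimap2 2.31. Scripts were tested on simulated data. Members, related lists and the naming rule were chosen with earlier results of these data known: the text names all members, every gene called in a related list of the tubulin pathway, *TTC5*, *STMN1*, *MAP4*, *MKI67*, *TOP2A*, *ACTB* and *GAPDH*, near-identical copies with at least 10 counts and the 2 most abundant genes of each list of cell type markers. Copies, overlapping genes and neighbours below that were chosen after their values were seen, or by position. Some coding sequences of the members are not reported here.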

Additional observations from a re-analysis of the deposited data

How the results depend on the processing

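Low counts limit *TUBB3* and *TUBA4A*. At any depth, near-identical copies limit *TUBA1A*, *TUBA1B*, *TUBA1C*, *TUBB*, *TUBB2A*, *TUBB2B* and *TUBB3*, and exons shared with another gene limit all members but *TUBB2A*. Over the members, 136 of 144 alternative values kept their direction and their side of the threshold, 3 lost the call (*TUBB4B*, without 4-OHT replicate 1, without 4-OHT replicate 2 and at a threshold of 0.01), 2 gained it (*TUBB2A* without control replicate 1, *TUBB6* with no filter on low counts) and 3 reversed. The reversed values were all of *TUBB2B*, −0.007 on the log2 scale without control replicate 1, −0.006 without control replicate 3 and −0.034 without 4-OHT replicate 2, in a range of −0.034 to 0.138 with a library left out. The number of members called down was 3 in the main analysis, 2 to 4 with a library left out, 4 with no filter and 2 at a threshold of 0.01. Over all genes, 563 were upregulated, 875 with no filter, 279 at a threshold of 0.01 and 289 to 696 with a library left out, and 527 were downregulated, 246 at a threshold of 0.01 and 244 to 834 with a library left out. Over the related lists, which here include the proliferation markers and the reference genes, 1 gene was called up, but 2 with limma-voom, 3 with no filter, 2 with the length and GC trend removed, 0 at a threshold of 0.01 and 0 to 2 with a library left out, and 18 were called down (13 to 21 with a library left out), 14 of them proliferation markers and 4 of the tubulin pathway. The cause of these changes was not tested.

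Replicate numbers gave no sign of pairing: same-numbered libraries deviated from their group means with correlations of −0.01, −0.10 and −0.09. Differently numbered libraries ranged from −0.06 to 0.16. With 3 libraries a group, such values cannot show whether same-numbered libraries shared a culture or batch. With the number as a replicate block, 502 genes were called up and 483 down, 3 members remained called down, and 2 genes of these lists were called up (2 also with the trend removed). The pooled α- and β-tubulin log2 ratios ranged from −0.16 to −0.09 and from −0.17 to −0.09 with a library left out.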

Other observations

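Of the genes in the related lists, 7 held 0 counts in all 6 libraries, named here after their values were seen. *ATAT1*, the α-tubulin acetyltransferase, and *PFDN6*, a subunit of prefoldin, lie on chromosome 6 like *TUBB*, and *TUBA3C*, *TUBA3E*, *TUBB4A*, *AGBL4* and *STMN2* lie on other chromosomes.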
